A study of Homo sapiens with 4 samples.

Results

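The genes described here are 9 components of the pathway by which a cell detects viral RNA and switches on its interferon response. They are the RNA sensors RIGI, IFIH1, DHX58 and TLR3, the interferon regulatory factors IRF1, IRF3, IRF7 and IRF9, and the transcription factor STAT2. They were chosen by symbol, through the Entrez identifiers of the gene tables, and earlier results of these data were known at that time. All 9 have a row in the JFK and Vector tables, which list 17010 genes each, and 8 have a row in the ING5 siRNA and Control siRNA tables, which list 16858 different genes each; TLR3 in the siRNA tables is not analysed here. RNA sequencing covered 4 libraries of cells labelled HepG2, the name of a human hepatoma line, with 1 library per group; several transcripts that define that line were nearly absent, as given below. A pair of libraries came from cells transfected with a FLAG-tagged JFK plasmid or with the empty vector, JFK being a former symbol of FBXO42, an F-box protein that picks substrates for ubiquitylation. For the second pair, cells received an siRNA against ING5, a subunit of histone acetyltransferase complexes, or a control siRNA. All 4 groups thus went through a transfection, and the labels give neither time points, doses nor an untransfected group.

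RIG-I (gene RIGI), MDA5 (IFIH1) and LGP2 (DHX58) are related cytosolic helicases that bind double-stranded RNA; RIG-I and MDA5 signal through the mitochondrial adaptor MAVS, while LGP2 lacks the signalling domains and modulates the others. TLR3 binds double-stranded RNA in endosomes. Their signals activate IRF3 and IRF7, which turn on interferon genes, and secreted interferon then activates ISGF3, the complex in which IRF9 supplies the DNA-binding contact and STAT2 the transactivation domain. ISGF3 binds interferon-stimulated response elements (ISREs) and raises antiviral genes, among them the genes of the sensors themselves. IRF1 is induced mainly by interferon gamma, through a separate element called GAS.

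Promoter sequences of IFIH1, RIGI, IRF1 and IRF9 are shown, picked after their folds were seen. RIGI and IFIH1 had counting intervals wholly below their controls in both comparisons, while IRF1 and IRF9 did not. IRF9 and STAT2 had such an interval in the plasmid pair only. The windows of STAT2 and TLR3 were searched but are not shown. Whether ISRE or GAS elements have a part in the folds was not tested. RefSeq promoter windows on GRCh38.p14, from 250 bases before to 50 bases after the annotated gene start, were matched for 6 of the 9 genes. They were searched on both strands for an ISRE-type motif, GAAANNGAAA, and for a GAS-type motif, TTCNNNGAA, which reads the same on both strands; N is any base. Capitals mark the matches.
IFIH1, chr2:162318635-162318934, minus strand: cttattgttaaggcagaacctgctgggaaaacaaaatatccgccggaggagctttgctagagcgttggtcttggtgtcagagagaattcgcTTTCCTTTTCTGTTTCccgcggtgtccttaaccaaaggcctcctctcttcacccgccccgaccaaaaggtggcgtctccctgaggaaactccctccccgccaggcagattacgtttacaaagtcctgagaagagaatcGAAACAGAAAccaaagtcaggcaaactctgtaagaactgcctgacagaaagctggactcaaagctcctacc
RIGI, chr9:32526147-32526446, minus strand: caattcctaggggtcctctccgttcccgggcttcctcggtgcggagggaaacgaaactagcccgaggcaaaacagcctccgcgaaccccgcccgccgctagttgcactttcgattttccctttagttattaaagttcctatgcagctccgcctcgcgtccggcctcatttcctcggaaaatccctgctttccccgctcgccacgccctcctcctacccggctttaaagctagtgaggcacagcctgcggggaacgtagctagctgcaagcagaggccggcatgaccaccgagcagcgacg
IRF1, chr5:132490724-132491023, minus strand: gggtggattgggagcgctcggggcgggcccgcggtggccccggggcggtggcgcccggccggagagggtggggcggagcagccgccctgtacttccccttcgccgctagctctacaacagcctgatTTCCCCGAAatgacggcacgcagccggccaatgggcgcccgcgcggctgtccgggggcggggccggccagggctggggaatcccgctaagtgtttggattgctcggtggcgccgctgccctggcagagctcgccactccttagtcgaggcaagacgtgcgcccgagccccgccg
IRF9, chr14:24161015-24161314, plus strand: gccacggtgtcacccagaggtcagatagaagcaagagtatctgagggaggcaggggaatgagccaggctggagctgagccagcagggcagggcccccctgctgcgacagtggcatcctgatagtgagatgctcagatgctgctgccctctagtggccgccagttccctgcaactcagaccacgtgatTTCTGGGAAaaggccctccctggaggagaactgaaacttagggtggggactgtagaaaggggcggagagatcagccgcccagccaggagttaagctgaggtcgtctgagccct

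The IFIH1 window held 3 ISRE-type matches, of which a pair overlap each other (TTTCCTTTTC and TTTCTGTTTC, on the opposite strand, starting 159 and 153 bases before the gene start) and the third, GAAACAGAAA, starts 21 bases before it. The TLR3 window held 1 ISRE-type match, TTTCACTTTC, starting 4 bases before the gene start, and 2 GAS-type matches. IRF1 and IRF9 each held 1 GAS-type match, TTCCCCGAA and TTCTGGGAA, 124 and 63 bases before the start, and no ISRE-type match. No match to either motif lay in the RIGI and STAT2 windows, which says only that these letters are not in these 300 bases. Of 35116 such windows over all genes, 3.57% held the ISRE-type motif and 7.66% the GAS-type motif. A match is a description of letters and was not tested as a binding site.

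Reads assigned to genes came to 7237325 in the library labelled JFK, 7179365 in Vector, 9030075 in ING5 siRNA and 9196979 in Control siRNA. FBXO42 had 115 counts in the library labelled JFK against 116 in Vector (log2 fold 0.01), so the transcript named by the label was not higher there, and the name "library labelled JFK" is used throughout. ING5 had 81 counts in ING5 siRNA and 144 in Control siRNA, 57.0% of the control level. With 1 library per group there is no replicate check and no test. A log2 fold is that of scaled counts with 0.5 added, and each interval is an exact 95% Clopper-Pearson interval of a pair of counts, which covers counting error only. Genes with a mean scaled count of at least 20 in a pair are called measured, and 1.5-fold, which is 0.58 on the log2 scale, is the size used to call a gene apart. Among hepatocyte markers CPS1 (22227 to 46771 counts) and HNF4A (51 to 91) were measured, while SERPINA1 had at most 7 counts and APOA1, APOB and AFP, where listed, at most 2. These 4 encode proteins that HepG2 is known to make in quantity, so the marker values go against the label, and the cells are called HepG2 here only as the labels do. Of 12 leukocyte markers, 9 were listed in the JFK and Vector tables and 7 in the siRNA tables, and their summed level was 186 CPM (each count over its library total, times 1000000) in the library labelled JFK, 185 in Vector, 51.3 in ING5 siRNA and 63.0 in Control siRNA. CD68 made up most of it, while the pan-leukocyte gene PTPRC had at most 8 counts and SPI1 at most 1. In the plasmid pair 2 leukocyte markers were measured, at log2 folds of −0.64, with an interval wholly below 0, and 0.10. In the siRNA pair 1 was measured, at −0.32 (−0.50 to −0.13). The part of these markers in the folds of the 9 genes was not tested. Fibroblast or endothelial markers, of which 5 of 11 were measured in each pair, summed to 233 CPM in the library labelled JFK against 213 in Vector (median log2 fold 0.02) and to 67.6 CPM in ING5 siRNA against 92.4 in Control siRNA (median −0.33). In the siRNA pair 4 of these 5 lay below 0, 3 with an interval clear of it, and 2 were at least 1.5-fold lower. The shares of all measured genes there were 51.4%, 20.6% and 4.4%. The 2 were the endothelial cadherin gene CDH5, with 87 counts in ING5 siRNA and 224 in Control siRNA (−1.34), and the matrix gene DCN, with 37 and 74 (−0.97). COL1A1 lay at −0.09 and the highest of the 5 at 0.19. The endothelial receptor genes KDR and TEK were at 0 in the library labelled JFK, THY1 at 0 in Vector and COL1A2 at 0 in ING5 siRNA. CDH5 and DCN, the lowest 2 of the 5, thus stood lower in ING5 siRNA as IFIH1 and RIGI did. The part of these markers in those folds was not tested. In such bulk RNA, fewer cells that express a gene and less RNA per cell cannot be told apart.

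**Figure D1:**
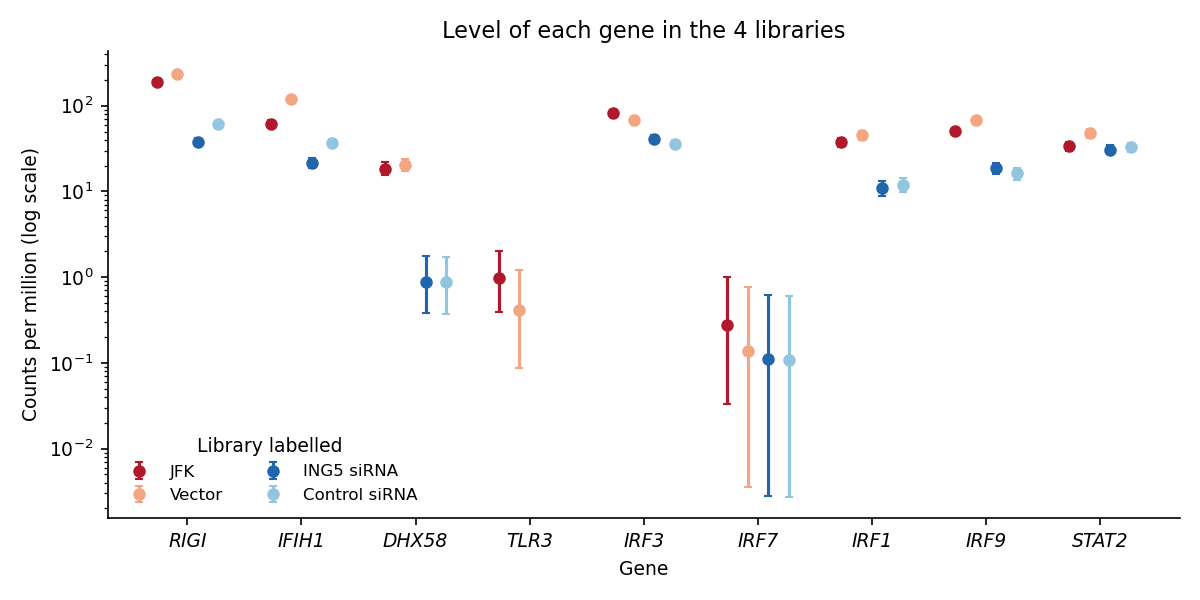
CPM on a log axis for each gene in the 4 libraries, with exact 95% Poisson intervals (counting error only). RIGI and IFIH1 lie lower in the library labelled JFK than in Vector and lower in ING5 siRNA than in Control siRNA, DHX58 lies near 20 CPM in the plasmid pair and below 1 CPM in the siRNA pair, and TLR3 and IRF7 stay below 1 CPM wherever they are listed.

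IFIH1 was the gene of the 9 with the lowest fold in both comparisons. It had 449 counts in the library labelled JFK, against 851 in Vector, or 62.0 against 118.5 CPM. In the siRNA pair it had 194 counts in ING5 siRNA and 340 in Control siRNA, or 21.5 and 37.0 CPM. The level in the library labelled JFK was 53.7% of that in Vector (interval 47.8% to 60.2%; log2 fold −0.90, −1.07 to −0.73). Under ING5 siRNA it was 57.8% of Control siRNA (48.1% to 69.0%; log2 fold −0.79, −1.06 to −0.53). Ordered from the lowest fold, IFIH1 stood at place 59 of 12107 measured genes in the plasmid pair and at place 198 of 11634 in the siRNA pair. IFIH1 encodes MDA5, which senses long double-stranded RNA.

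RIGI, for the sensor of short double-stranded RNA with a 5′ triphosphate, was lower in both comparisons too, more so in the siRNA pair. It had 1356 expected counts in the library labelled JFK against 1695 in Vector, or 187 and 236 CPM. In ING5 siRNA it had 342 counts, against 557 in Control siRNA, or 37.9 against 60.6 CPM. The library labelled JFK and ING5 siRNA thus stood below their controls, at 81.4% (75.7% to 87.4%; log2 fold −0.30, −0.40 to −0.19) and 62.1% (54.1% to 71.2%; log2 fold −0.69, −0.89 to −0.49). Its expected counts in the plasmid pair were not whole, as arises when reads are divided among genes. The ING5 siRNA fold was lower than the JFK fold by more than counting error (difference −0.39, interval −0.61 to −0.17), whereas for IFIH1 the difference was 0.11 (−0.21 to 0.41).

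The balance between these sensors does not depend on how a library is scaled. IFIH1 made up 24.9% of the IFIH1 and RIGI reads in the library labelled JFK (exact binomial interval 22.9% to 26.9%) and 33.4% in Vector (31.6% to 35.3%). It made up 36.2% in ING5 siRNA (32.1% to 40.4%) and 37.9% in Control siRNA (34.7% to 41.2%). The ratio of IFIH1 to RIGI reads was therefore 0.66 times as high in the library labelled JFK as in Vector (0.57 to 0.76), and 0.93 times as high in ING5 siRNA as in Control siRNA (0.74 to 1.17). In the plasmid pair IFIH1 was lower than RIGI was; in the siRNA pair the intervals of both shares overlap.

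**Figure D2:**
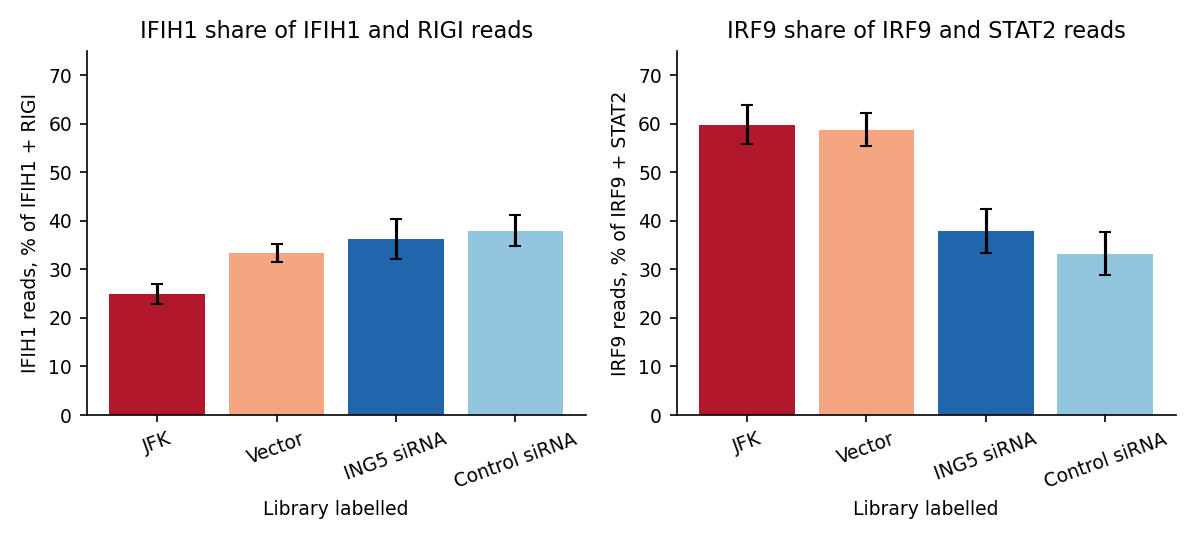
Share of reads within a pair of genes in each library, in percent, with exact 95% binomial intervals (counting error only); bars start at 0. The IFIH1 share of IFIH1 and RIGI reads is 24.9% in the library labelled JFK against 33.4% in Vector, and the IRF9 share of IRF9 and STAT2 reads is 59.8% and 58.8% there, against 37.8% in ING5 siRNA and 33.1% in Control siRNA.

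DHX58, for the modulating helicase LGP2, had 133 counts in the library labelled JFK against 146 in Vector (18.4 and 20.3 CPM; log2 fold −0.11, interval −0.46 to 0.24). It had 8 counts in ING5 siRNA and 8 in Control siRNA, or 0.886 and 0.870 CPM, with 3 counts corresponding to 0.332 and 0.326 CPM, and at this depth the fold has an interval of −1.60 to 1.63. In the plasmid pair this interval does not reach the IFIH1 fold of −0.90, but it holds the RIGI fold: the ratio of DHX58 to RIGI reads was 1.14 times as high in the library labelled JFK as in Vector (0.88 to 1.47). In the siRNA pair DHX58 was too scarce for a comparison. TLR3 had 7 counts in the library labelled JFK against 3 in Vector. A difference between these was not detectable, since the interval of the log2 fold runs from −0.88 to 3.83.

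Among the factors that sensors activate, IRF3, the constitutive trigger of interferon genes, stood above both controls. Its interval lay clear of 0 in the plasmid pair only. IRF3 had 601 counts in the library labelled JFK against 490 in Vector, or 83.0 and 68.3 CPM (log2 fold 0.32, interval 0.14 to 0.49). It had 370 counts in ING5 siRNA and 332 in Control siRNA, or 41.0 and 36.1 CPM (0.17, −0.05 to 0.39). Intervals wholly above 0 were found for 14.3% of measured genes in the plasmid pair. By annotated span IRF3 overlaps the apoptosis regulator gene BCL2L12, and whether counting used strand is not stated in the labels or headers, so reads in the overlap cannot be told apart; BCL2L12 lay at 0.19 (−0.06 to 0.43) in the plasmid pair and 0.30 (0.04 to 0.57) in the siRNA pair. IRF7, the interferon-inducible partner of IRF3, had 2 counts in the library labelled JFK, 1 in Vector, 1 in ING5 siRNA and 1 in Control siRNA, which is below the 3 counts used as a floor in every library, and it has no fold.

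IRF1, an interferon gamma-induced activator, had 271 expected counts in the library labelled JFK against 323 in Vector, or 37.4 and 45.0 CPM. In ING5 siRNA it had 99 counts and in Control siRNA 109, or 11.0 and 11.9 CPM. The log2 folds were −0.23 (−0.47 to 0.01) and −0.12 (−0.53 to 0.28), and neither interval lay clear of 0.

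The ISGF3 subunits IRF9 and STAT2 were lower in the library labelled JFK and had intervals that span 0 in the siRNA pair. IRF9 had 363 counts in the library labelled JFK, against 486 in Vector (50.2 against 67.7 CPM; log2 fold −0.40, interval −0.60 to −0.20). It had 169 counts in ING5 siRNA, against 149 in Control siRNA (18.7 against 16.2 CPM; 0.20, −0.13 to 0.53). The IRF9 folds differed by 0.59 between the comparisons (interval 0.21 to 0.98). STAT2 had 244 expected counts in the library labelled JFK against 341 in Vector (33.8 and 47.5 CPM; −0.46, −0.70 to −0.22). In the siRNA pair STAT2 had 278 counts in ING5 siRNA and 301 in Control siRNA (30.8 and 32.7 CPM; −0.10, −0.34 to 0.14), and its folds differed by 0.36 (0.02 to 0.70). IRF9 and STAT2 kept nearly the same proportion within the plasmid pair. IRF9 was 59.8% of their joint reads in the library labelled JFK (55.8% to 63.7%) and 58.8% in Vector (55.3% to 62.1%), against 37.8% in ING5 siRNA (33.3% to 42.5%) and 33.1% in Control siRNA (28.8% to 37.7%).

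**Figure D3:**
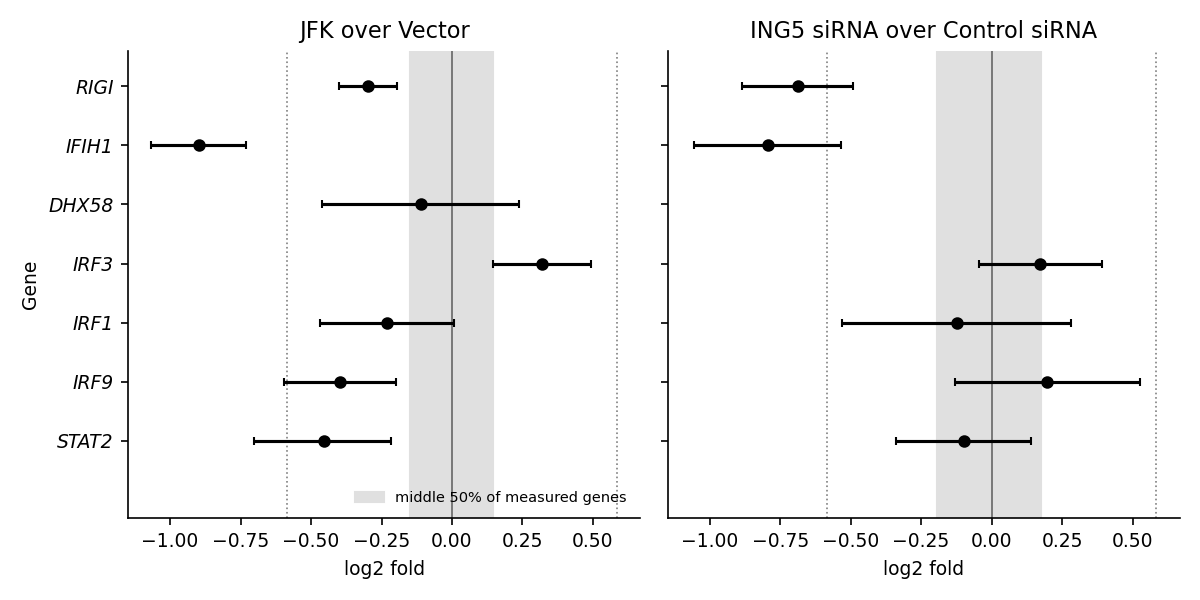
Log2 folds of the measured genes in each comparison, with exact 95% counting intervals; the grey band holds the middle 50% of all measured genes and dotted lines mark 1.5-fold. IFIH1 passes the dotted line in both panels and RIGI in the right one, while IRF9 and STAT2 lie below 0 with intervals clear of it on the left only.

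Of the 9 genes, 7 were measured in the plasmid pair and 6 in the siRNA pair. In the library labelled JFK 6 of 7 lay below 0, where 49.5% of all measured genes did, and the median was −0.30, against 0.00 over all 12107. An interval wholly below 0 was found for 4 of 7 (IFIH1, STAT2, IRF9 and RIGI), against 11.2% of measured genes. At least 1.5-fold lower was 1 of 7, IFIH1, against 2.07% of measured genes, and 0 of 7 were at least 1.5-fold higher, against 1.5%. In ING5 siRNA 4 of 6 lay below 0, where 51.4% of measured genes did, with a median of −0.11 against −0.01 over all 11634. An interval wholly below 0 and a fold of at least 1.5 were found for the same 2 of 6, IFIH1 and RIGI; the shares of all measured genes were 20.6% and 4.4%. None of the 6 was at least 1.5-fold higher, where 4.01% of measured genes were, and none had an interval wholly above 0, where 18.3% did; IRF3 and IRF9, 2 of the 6, lay above 0, as did 48.6% of measured genes. The next lowest gene outside the 1.5-fold limit was STAT2 in the plasmid pair, at −0.46, and IRF1 in the siRNA pair, at −0.12.

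The comparisons have separate controls, so a gene's place in both can be read side by side. Of 11148 genes measured in both, 23 (0.206%) were at least 1.5-fold lower in both, and IFIH1 was 1 of these. By the sum of the log2 folds only RSAD2, ZNF93, FAM201A and CRIP2, named after their values were seen, stood lower than IFIH1 among the 23. Below 0 in both lay IFIH1, RIGI, IRF1 and STAT2, 4 of the 6, as did 25.9% of all genes. An interval wholly below 0 in both was found for IFIH1 and RIGI, 2 of the 6 sensors and factors measured in both, and for 3.94% of all genes. The genes nearest to each of the 6 by the distance between their pairs of log2 folds were sought among 8346 genes with a mean of at least 100 in both pairs, over 4 libraries. Nearest to IFIH1 were the keratin gene KRT7, ZBTB34 and ZBTB41, at distances of 0.23, 0.24 and 0.25, and nearest to RIGI were NEK7, SAMD9 and LANCL2, at 0.04, 0.04 and 0.06. SAMD9 is an interferon-inducible antiviral gene. DTWD1, FOXN3 and CLOCK lay nearest to IRF9, SLC35A3, GFOD3P and ZNF41 to STAT2, DDX17, GTF2A1 and FCHSD2 to IRF1, and GTF2H4, HDAC5 and ELK1 to IRF3, all within 0.04.

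**Figure D4:**
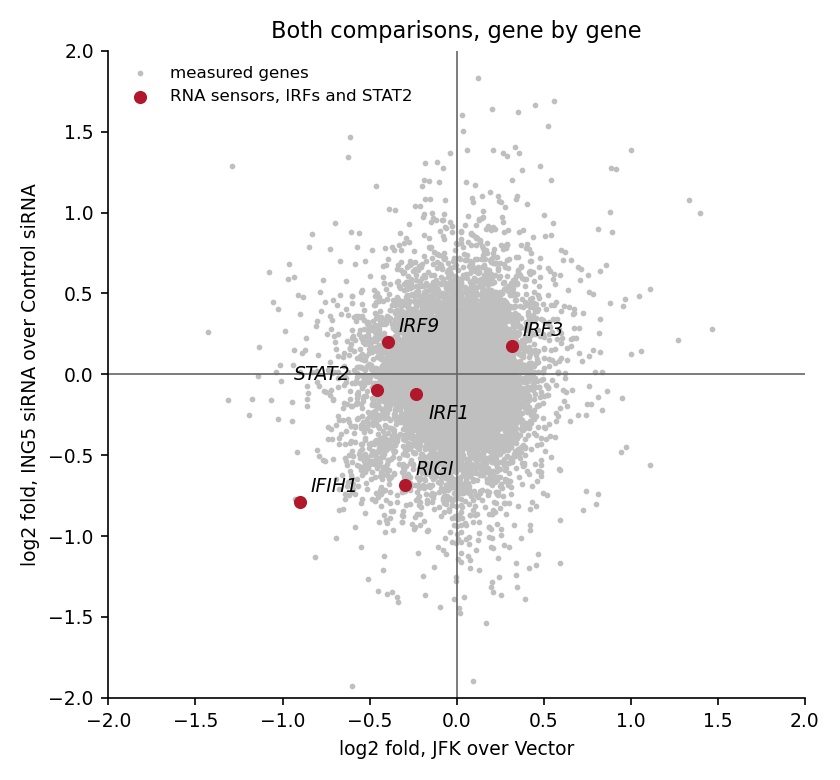
Log2 fold in the plasmid pair (horizontal) against log2 fold in the siRNA pair (vertical) for the 11148 genes measured in both, drawn within ±2 on both axes, which leaves out 4 genes. IFIH1 lies at −0.90 and −0.79 at the lower left rim of the cloud, RIGI at −0.30 and −0.69, and IRF9 left of 0 but above it at −0.40 and 0.20.

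Order per kilobase was read from the deposited FPKM and RPKM, within a table. In the library labelled JFK IRF3 led at 54.4 FPKM, before RIGI (38.8), IRF9 (29.5), IFIH1 (16.9) and IRF1 (10.4), with intervals apart from neighbour to neighbour; STAT2 (7.28) and DHX58 (6.92) overlapped. In Vector RIGI (49.1 FPKM), IRF3 (45.6) and IRF9 (40.0) led, with neighbouring counting intervals that overlap, followed by IFIH1 (32.5), IRF1 (12.5), STAT2 (10.3, its interval overlapping that of IRF1), DHX58 (7.70), TLR3 (0.14) and IRF7 (0.07). In ING5 siRNA the order was IRF3 (22.9 RPKM), IRF9 (10.9), RIGI (7.89), STAT2 (6.67) and IFIH1 (5.89), and the intervals of RIGI and STAT2 and of STAT2 and IFIH1 overlapped. In Control siRNA it was IRF3 (20.4 RPKM), RIGI (12.7), IFIH1 (10.2), IRF9 (9.53) and STAT2 (7.15), where IFIH1 and IRF9 overlapped. RIGI and IFIH1 thus each stood 1 or more places lower, per kilobase, in ING5 siRNA than in Control siRNA.

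Levels can also be set across tables, with the reservation that these were counted and normalised separately. In CPM, DHX58 was 23.4 times as high in Vector as in Control siRNA (counting interval 11.6 to 55.2), at 20.3 against 0.870 CPM. The ratio was 4.18 for IRF9 (3.47 to 5.05), 3.90 for RIGI (3.54 to 4.30), 3.80 for IRF1 (3.05 to 4.76), 3.21 for IFIH1 (2.82 to 3.65), 1.89 for IRF3 (1.64 to 2.18) and 1.45 for STAT2 (1.24 to 1.70). STAT2 stood at 33.8 CPM in the library labelled JFK against 30.8 in ING5 siRNA. That is a smaller gap than between the library labelled JFK and Vector (47.5 CPM). Between the controls the STAT2 gap was larger than both, at 47.5 CPM in Vector against 32.7 in Control siRNA. Which gap is larger thus depends on the libraries set side by side. The kind of transfection and the way of counting cannot be told apart here.

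Other genes of the pathway were read from lists of its parts. Interferon genes were near or at the floor: of 22, 4 were listed in the plasmid pair and 2 in the siRNA pair, with at most 7 counts, IFNE in Control siRNA. Interferon beta, IFNB1, had 0 counts in the library labelled JFK against 1 in Vector. The receptors and Janus kinases that receive interferon were present, all 9 measured in both pairs. Their medians were −0.08 in the library labelled JFK and −0.10 in ING5 siRNA, and 0 were at least 1.5-fold apart in either. Of all measured genes, 2.07% were at least 1.5-fold lower and 1.5% higher in the plasmid pair. In the siRNA pair these shares were 4.4% and 4.01%, so 0 of 9 is not far from them. IFNAR2, a subunit of the type I interferon receptor, lay at −0.31 (−0.59 to −0.04) in the library labelled JFK and 0.38 (0.14 to 0.62) in ING5 siRNA.

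RNA sensors outside the 9 were read together with other RNA-binding antiviral proteins. Of 17 measured in the plasmid pair, 14 lay below 0 (median −0.21), 11 with an interval clear of 0, and 3 passed 1.5-fold downwards, where the shares of all measured genes were 49.5%, 11.2% and 2.07%; 0 of 17 had an interval wholly above 0. Of 16 in the siRNA pair, 12 lay below 0 (median −0.26), 9 with an interval clear of 0, and 4 were at least 1.5-fold lower, against 51.4%, 20.6% and 4.4% of all measured genes. In that pair 3 of the 16 (NLRP1, DDX3X and DHX33) had an interval wholly above 0, against 18.3%, and NLRP1 was at least 1.5-fold higher. OAS3, which makes the 2-5A messenger that activates RNase L, had 2313 counts in the library labelled JFK against 3548 in Vector (−0.59, −0.67 to −0.52), and 993 in ING5 siRNA and 1644 in Control siRNA (−0.71, −0.83 to −0.60), a gene whose count and RPKM disagree in the siRNA tables. OAS2 had 948 counts in the library labelled JFK against 1544 in Vector (−0.68). OAS1 had 460 counts in ING5 siRNA and 803 in Control siRNA (−0.79), and IFIT1, which binds 5′ triphosphate RNA, 1113 and 2037 (−0.86). NLRP1, an inflammasome sensor, was the gene of this list at least 1.5-fold higher in ING5 siRNA, with 113 counts against 76 in Control siRNA (0.59, 0.16 to 1.03), and had 20 counts in the library labelled JFK against 35 in Vector (−0.77, −1.65 to 0.05). The interferon-stimulated effector genes, some of which stand in both lists, had a median of −0.31 over 34 genes in the plasmid pair and −0.51 over 30 in the siRNA pair. The siRNA median moves with the genes kept: it was −0.31 without genes whose count and RPKM disagree, −0.28 with no filter and −0.71 at a mean of at least 100.

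Components between the sensors and the IRFs had medians near 0. Of 20 adaptors and kinases, all measured in both pairs, 0 were at least 1.5-fold apart. The medians were 0.01 in the library labelled JFK and −0.01 in ING5 siRNA. Of all measured genes, 2.07% were at least 1.5-fold lower and 1.5% higher in the plasmid pair. In the siRNA pair these shares were 4.4% and 4.01%, so 0 of 20 is not far from them. Intervals wholly below 0 were found for 3 and 4 of the 20, against 11.2% and 20.6% of all measured genes. Wholly above 0 were 2 and 1, against 14.3% and 18.3%. MAVS, the adaptor of RIG-I and MDA5, had 897 counts in the library labelled JFK against 904 in Vector (0.01, −0.12 to 0.15), and 1014 in ING5 siRNA and 1148 in Control siRNA (−0.16, −0.29 to −0.04). TBK1, the kinase that phosphorylates IRF3, had 152 counts in the library labelled JFK against 204 in Vector (−0.40, −0.71 to −0.09), and 886 in ING5 siRNA and 818 in Control siRNA (0.13, −0.01 to 0.27). RIPK1, a kinase of death receptor and RNA sensor signalling, lay at −0.42 (−0.69 to −0.16) and −0.43 (−0.72 to −0.15). DNA sensors had medians of −0.09 and −0.04 over 8 genes. None was 1.5-fold apart, and 8 genes are too few to set this against the shares above. STING1, the adaptor of DNA sensors, had 168 counts in ING5 siRNA and 250 in Control siRNA (−0.56, −0.85 to −0.27). In the library labelled JFK it lay at 0.05.

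Ubiquitin ligases and other regulators of RIG-I-like receptors had medians of 0.00 over 23 genes in the library labelled JFK and −0.07 over 22 in ING5 siRNA. In the latter 1 was at least 1.5-fold lower: RNF135, the ligase also called Riplet that modifies RIG-I, with 77 counts in ING5 siRNA and 138 in Control siRNA (−0.82, −1.25 to −0.41); 1 of 22 is close to the 4.4% of all measured genes at least 1.5-fold lower. In the plasmid pair RNF135 had 224 counts in the library labelled JFK against 244 in Vector (−0.10, −0.37 to 0.17). TNFAIP3, the deubiquitinase A20, was the highest of the list in ING5 siRNA, with 557 counts against 393 in Control siRNA (0.52, 0.33 to 0.71), and lay at 0.00 in the library labelled JFK.

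Of the other IRFs and their cofactors, 6 were measured in each pair. All 6 lay above 0 in the library labelled JFK (median 0.08), where 50.5% of measured genes did. An interval wholly above 0 was found for 1, the corepressor gene IRF2BP1 (0.36, 0.10 to 0.62), close to the 14.3% of all measured genes. In ING5 siRNA 4 of 6 lay below 0 (median −0.09), against 51.4% of measured genes, and 3 had an interval wholly below 0, against 20.6%. Among these the acetyltransferase coactivators CREBBP and EP300 stood at −0.32 (−0.44 to −0.19) and −0.24 (−0.37 to −0.12). IRF2, a repressor of IRF1 targets, lay at 0.10 and 0.11, and IRF5 had at most 14 counts in any library. Of the other STAT genes 4 were measured, with medians of 0.08 and 0.00. None was 1.5-fold apart, where 2.07% and 4.4% of all measured genes were lower and 1.5% and 4.01% higher. With 4 genes this count says little. STAT3, the factor of interleukin-6 signalling, had 3661 counts in ING5 siRNA and 3002 in Control siRNA (0.30, 0.23 to 0.37). In the library labelled JFK it lay at −0.04. Negative regulators had medians of 0.00 in both comparisons over 15 genes. In each comparison 1 of 15 was at least 1.5-fold lower, against 2.07% and 4.4% of all measured genes. It was USP18 in the library labelled JFK and ISG15, which also stands among the effector genes, in ING5 siRNA (−0.72). USP18, which holds the type I receptor in check and is itself interferon-induced, had 377 counts in the library labelled JFK against 613 in Vector (−0.68, −0.87 to −0.49), and 109 in ING5 siRNA and 145 in Control siRNA (−0.39, −0.77 to −0.03).

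**Figure D5:**
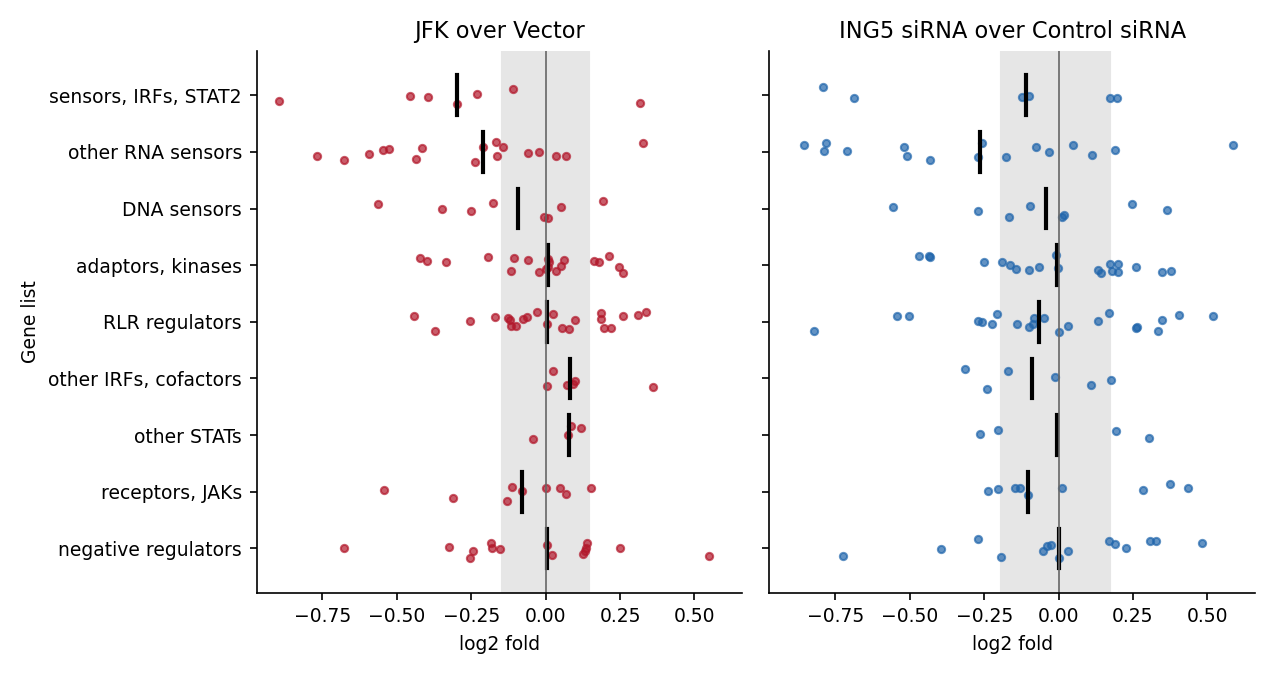
Log2 folds of the measured genes of each pathway list in both comparisons; each point is a gene, black bars are list medians and the grey band holds the middle 50% of all measured genes. Other RNA sensors have medians of −0.21 and −0.26, while adaptors and kinases lie at 0.01 and −0.01.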

How the data were processed

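Gene tables of 4 HepG2 RNA-seq libraries were used, grouped by the transfection label. Trizol-isolated RNA was sequenced on a HiSeq, per the labels. FastQC, fastp, STAR and DESeq2 and the builds GRCh37 and hg19 are named in the submitters' processing notes; no version or role is stated, and nothing names the read counter. Per the file headers and values, the authors deposited expected counts and FPKM for JFK and Vector. Whole-number counts and RPKM were deposited for the siRNA pair.

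Entrez identifiers were matched to RefSeq symbols (GRCh38.p14) for 16899 of 17009 and 16767 of 16856 genes used. IL32 (blank count) and NADK2 and SMG1P3 (repeated rows) were left out of their pair. Counts were scaled within each pair by TMM (trims 0.3 and 0.05) with scipy 1.17.1, numpy 2.4.6 and pandas 2.3.3 (Python 3.11.15; plots, matplotlib 3.10.9). Log2 folds used 0.5 added to scaled counts. Exact Clopper-Pearson, Poisson and binomial 95% intervals used expected counts rounded to whole numbers; the interval of a difference between folds combines their separate intervals. Without molecular identifiers, reads need not be separate molecules, so intervals cover counting error only. With 1 library per group no test was run, and the procedure was tested on simulated data. The 9 genes and the pathway lists were chosen with earlier results of these data known. Named genes were the 9, FBXO42 and ING5, the 3 highest and 3 lowest measured genes of each list, the 3 genes nearest to each of the 6 with a mean of at least 100 in both pairs, genes without a symbol passed over, and list genes of 20 or more counts; BCL2L12, MAVS, IRF2 and a few others are named for their position or role. One pathway gene is not reported here.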

Additional observations from a re-analysis of the deposited data

Results flagged for a closer look

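The 100 pathway genes considered here were measured in both pairs and come from the lists other than the 9 and the effector genes. ISG15 is among them and stands in the effector list as well. Of the 100, 11 (11%) stood on opposite sides of 0 in the comparisons, with both counting intervals clear of 0. None of the 9 sensors, IRFs and STAT2 did. Of all 11148 genes measured in both pairs 673 (6.04%) did the same, so such a pattern is common and is not read as a feature of the pathway. The difference between comparisons was not tested. Values are log2 folds, the library labelled JFK over Vector first and ING5 siRNA over Control siRNA after it. Lower and then higher were DDX3X, an RNA helicase (−0.24 and 0.11), SAMHD1, a dNTP hydrolase (−0.56 and 0.25), CYLD, a deubiquitinase (−0.25 and 0.26), the receptor subunit IFNAR2 (−0.31 and 0.38), the kinase JAK2 (−0.54 and 0.44) and the phosphatase PTPN11 (−0.24 and 0.19). Higher and then lower were the kinase IRAK1 (0.25 and −0.44), the deubiquitinase OTUB1 (0.22 and −0.27), TKFC, an inhibitor of MDA5 (0.34 and −0.50), the phosphatase PPP1CA (0.26 and −0.26) and the ubiquitin-like modifier ISG15 (0.13 and −0.72).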

How the results depend on the processing

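No paired analysis was possible because each group holds 1 library, so no library could be left out either. The folds of the measured sensors, IRFs and STAT2 stayed inside their counting intervals under median-of-ratios and total count scaling, 5 added and deposited FPKM or RPKM. They did so too without genes whose count and FPKM or RPKM disagree. A filter changes only which genes are kept, so it could not move these folds. IFIH1 ran from −0.94 to −0.89 in the plasmid pair and from −0.81 to −0.78 in the siRNA pair, and RIGI from −0.34 to −0.30 and from −0.70 to −0.68. With no filter 2 of the 9, TLR3 and IRF7, count as at least 1.5-fold higher in the plasmid pair on at most 7 reads, and the median of the other STATs in the siRNA pair becomes 0.19 with STAT4, at 4 and 2 counts. The median of the effector genes in the siRNA pair ran from −0.71 to −0.28. Counts over all genes at least 1.5-fold apart depend on the filter: with none, 1846 were lower and 1571 higher in the plasmid pair and 2113 lower and 2263 higher in the siRNA pair; at a mean of at least 100, 60 and 22, and 293 and 168. Depth limits DHX58 in the siRNA pair, TLR3 and IRF7.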
